A study of Mus musculus with 6 samples.

Results

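Colony-stimulating factor receptors and the transcription factors of the myeloid lineage were followed in macrophages cultured with cartilage fragments. The 9 genes, taken by symbol from the gene names in the files, were Csf1r, Csf2ra, Csf2rb, Csf2rb2, Csf3r, Spi1, Cebpa, Cebpb and Cebpd, of 24394 gene symbols in all. All 9 were found in each of the 6 libraries and all 9 passed the filter on low values, as did 10392 symbols in all. Bone marrow cells of C57BL/6 mice at postnatal day 28 were passed through a monocyte isolation kit and grown for 7 days in medium that held macrophage colony-stimulating factor (M-CSF) at 50 ng/ml, which gave bone marrow-derived macrophages (BMMs) in both groups. Then 3 cultures received 5 cartilage fragments per macrophage for 24 h (stimulated macrophages) and 3 did not (control macrophages). The fragments came from the cartilage of the same mice, and whether M-CSF was kept in the medium during the 24 h is not given in the sources used here. Nothing in the labels says that the 3 cultures of a group came from separate animals, so p-values measure the spread between these cultures, which may be technical.

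M-CSF, granulocyte-macrophage colony-stimulating factor (GM-CSF) and granulocyte colony-stimulating factor (G-CSF) are secreted proteins that drive the survival, growth and maturation of myeloid cells. Csf1r is the receptor tyrosine kinase for M-CSF, on which macrophages depend. Csf2ra is the ligand-binding chain of the GM-CSF receptor, Csf2rb the common beta chain that it shares with the receptors for IL-3 and IL-5, and Csf2rb2 a beta chain that mice carry beside it and that serves IL-3. Csf3r is the G-CSF receptor, best known from neutrophils. Spi1 encodes PU.1, an ETS factor without which macrophages do not form, and Cebpa, Cebpb and Cebpd encode C/EBP factors, of which the first drives the granulocyte and monocyte fate and the others are known for inflammatory and acute phase gene expression.

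Csf2rb and Csf2rb2 lie beside each other on mouse chromosome 15 and are near copies, so the sequences that separate them are shown first. On mm10 the files place Csf2rb at chr15:78325990-78351001 on the plus strand and Csf2rb2 at chr15:78282508-78305721 on the minus strand. In GENCODE M21 the coding sequences of ENSMUST00000096355.3 (Csf2rb) and ENSMUST00000096356.4 (Csf2rb2) were identical at 92.9% of 2694 aligned positions, gaps included, and at 95.2% of the positions without a gap. The longest run without a difference covered 242 bases, at coding positions 2083 to 2324 of both, in exon 14 of 14. It lies at chr15:78348577-78348818 in Csf2rb and at chr15:78284630-78284871 in Csf2rb2, and a read within it cannot be placed in 1 of the genes by its letters:
Csf2rb and Csf2rb2, identical run: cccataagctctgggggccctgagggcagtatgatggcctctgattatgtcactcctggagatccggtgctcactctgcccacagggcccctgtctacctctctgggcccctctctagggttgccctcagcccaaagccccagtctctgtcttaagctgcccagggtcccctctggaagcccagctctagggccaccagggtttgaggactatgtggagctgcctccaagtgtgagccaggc
Of 22 successive stretches of 100 bases without a gap, the one that differed most held 16 differences and lies in exon 4 of 14 of both genes. It is shown with the differing bases in capitals, at chr15:78338887-78338986 in Csf2rb and chr15:78294345-78294444 in Csf2rb2:
Csf2rb: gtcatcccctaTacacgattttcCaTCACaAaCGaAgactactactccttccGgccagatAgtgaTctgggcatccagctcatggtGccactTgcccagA
Csf2rb2: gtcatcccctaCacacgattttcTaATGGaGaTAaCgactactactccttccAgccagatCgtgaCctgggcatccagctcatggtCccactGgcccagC
Of all 100-base windows of the Csf2rb transcript 334 of 4665 (7.16%) were also present in Csf2rb2, and of those of Csf2rb2 334 of 4641 (7.2%) were present in Csf2rb. The reads were 100 bp long, and how reads that matched both genes were divided is not given in the sources used here, so the split between the pair is uncertain and their sum is given beside it.

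The values are FPKM, fragments scaled to transcript length and to the fragments of the library, which Cufflinks gave for each transcript of each library. Besides the transcripts that carry a gene symbol (named transcripts), each library held 1453 to 1654 transcripts that Cufflinks had assembled there without a symbol, with 15.8 to 20% of its FPKM. A locus value here is the sum over the named transcripts of a gene and the assembled transcripts that Cufflinks put in the same locus. The coverage in the files corresponds to 743000 to 776000 fragments per control library and 699000 to 754000 per stimulated library, far below the number of reads that the study's methods state. All 9 macrophage markers listed for the check were present in every library, with Lyz2 and Cd68 the highest. Markers of chondrocytes, the cells of cartilage, summed to 1.15 to 3.28 FPKM in control and 0.985 to 1.59 FPKM in stimulated libraries, and 6 of 10 were at 0 in every library. The 10 neutrophil markers found in the files, of 11 listed, summed to 1047 to 1155 FPKM in control and 950.5 to 1317 FPKM in stimulated libraries. Among them S100a8 lay between 250.1 and 454.3 FPKM, S100a9 between 329.4 and 502.3 and Mmp8 between 116.5 and 170.1. Ngp lay between 47.92 and 84.84 FPKM, Ltf between 23.28 and 34.28 and Camp between 3.295 and 33.22. Cxcr2 lay between 1.413 and 4.788 FPKM, and Elane and Mpo stayed below 2 FPKM. Markers of dendritic, T and NK, B, erythroid and mast cells summed to at most 8.003 FPKM per cell type in any library. The 7 markers of fibroblasts and osteoblasts summed to 155.9 to 171.3 FPKM in control and 105.6 to 121.2 FPKM in stimulated libraries, nearly all of it from Col1a1 and Col1a2. The methods give male mice, while Xist lay between 19.8 and 23.6 FPKM and the 4 Y-linked genes tested were at 0 in all 6 libraries.

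**Figure D1:**
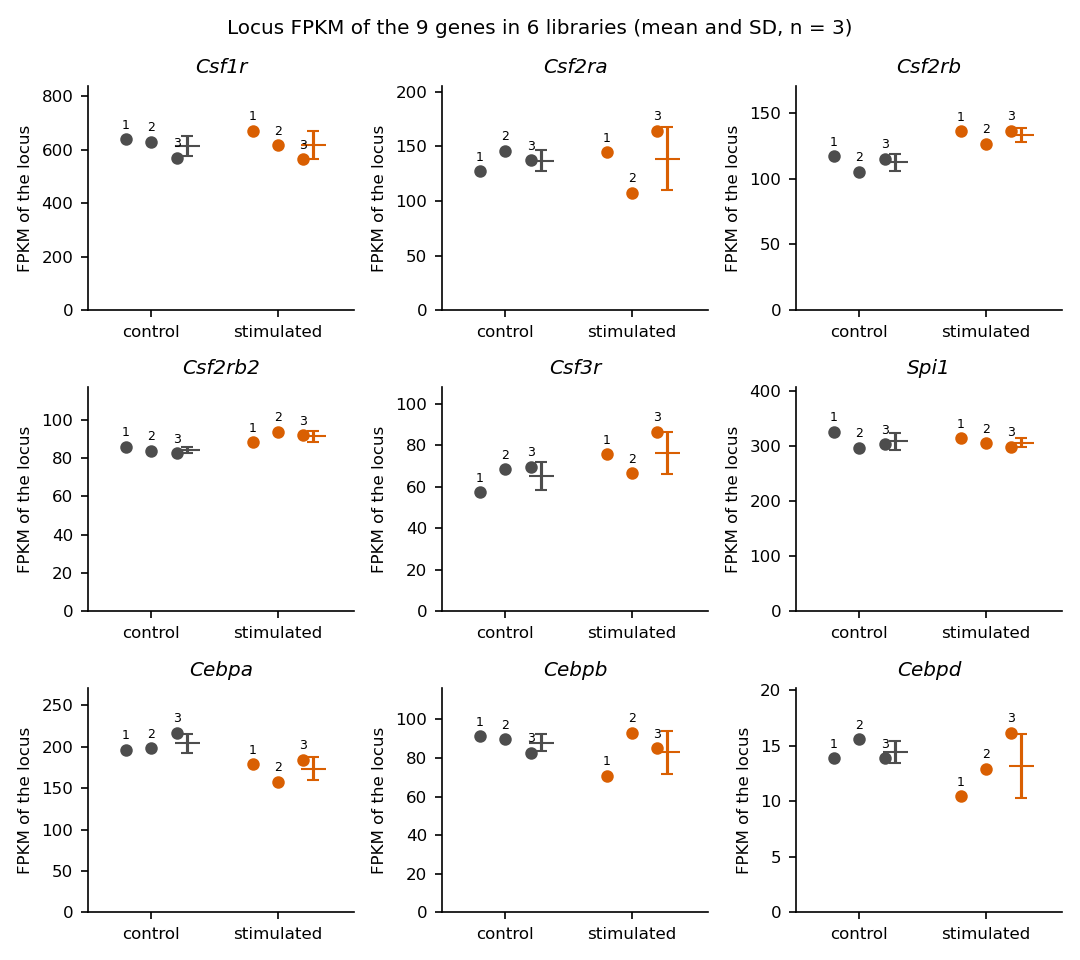
Locus FPKM (y axis of each panel, from 0) of the 9 genes in the 3 control (grey) and 3 stimulated (orange) libraries, with the replicate number at each point and the mean and SD (n = 3) beside the points. The stimulated libraries sit above every control library for Csf2rb and Csf2rb2 and below every control library for Cebpa, and the groups overlap for the other 6 genes.

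None of the 9 genes passed the threshold between stimulated and control macrophages. Per gene the locus FPKM were compared on the log2 scale after adding 0.1 with limma, two-sided, with Benjamini-Hochberg adjustment over the 10392 tested genes and a threshold of 0.05. Of all tested genes 39 passed (0.375%), 32 higher (0.308%) and 7 lower (0.0674%), and 970 had an unadjusted p under 0.05. Of the 9 genes 0 passed with limma, and 2 had an unadjusted p under 0.05, against 9.33% of all tested genes. The groups did not overlap for 3 of the 9 genes, against 16% of all tested genes. They were higher for 2 of the 9, Csf2rb and Csf2rb2, against 9.06% of all, and lower for 1 of the 9, Cebpa, against 6.89% of all. On fragments estimated from coverage and scaled to the library (scaled fragments) 0 of the 9 genes passed with limma, where 2.65% of all tested genes did. There 4 of the 9 had an unadjusted p under 0.05, against 11.8% of all tested genes, and the groups did not overlap for the same 3 genes, against 16.6% of all. The 95% intervals of the 9 changes lay between -0.64 and 0.54 on the log2 scale. The median change of the 9 genes was 0.00 on the log2 scale of FPKM, as was that of all tested genes.

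Csf1r was the most abundant of the 9 genes. It was measured at 639.1, 629.8 and 569.5 FPKM in the control libraries and at 669.9, 617.5 and 565.1 FPKM in the stimulated libraries. The stimulated libraries held both the highest and the lowest value. Mean locus FPKM was 612.8 ± 37.8 (SD, n = 3) in control and 617.5 ± 52.4 (SD, n = 3) in stimulated macrophages. A log2 fold change of 0.01 was found, with a 95% interval from -0.17 to 0.19. For the M-CSF receptor transcript this interval corresponds to 0.889 to 1.14 times the control level, and it covers the spread between these cultures only. Its position in the files is chr18:61105572-61131139 on the plus strand, and every fragment of the locus was on 1 named transcript.

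Over its locus Csf2rb, the common beta chain, was higher in every stimulated library than in any control library, by less than the test required over all genes. The control libraries held 116.9, 105.0 and 114.9 FPKM, and the stimulated libraries 135.7, 126.5 and 136.1 FPKM. The means were 112.3 ± 6.38 FPKM in control and 132.8 ± 5.41 FPKM in stimulated macrophages (SD, n = 3 each). This was a log2 fold change of 0.24 (95% interval 0.04 to 0.45), or 1.18-fold, with an unadjusted p of 0.0268 and an adjusted p of 0.444 in limma. On named transcripts the groups overlapped, at 99.56, 84.65 and 114.9 FPKM in control and 135.7, 126.5 and 98.55 FPKM in stimulated libraries. There the log2 fold change was 0.27 (95% interval -0.16 to 0.69), with an adjusted p of 0.797 in limma. The study lists Csf2rb among its upregulated genes, a choice made on these same libraries.

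Csf2rb2 differed by less than Csf2rb in locus FPKM, while the 2 genes were close on scaled fragments. It stood at 85.8, 83.7 and 82.5 FPKM in the control libraries and at 88.1, 93.6 and 92.0 FPKM in the stimulated libraries. These ranges did not overlap either, and lay close to each other. Its log2 fold change was 0.12 (95% interval -0.09 to 0.33), with an adjusted p of 0.746 in limma. On scaled fragments Csf2rb and Csf2rb2 had log2 fold changes of 0.21 and 0.18, with adjusted p of 0.151 and 0.360 in limma.

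The sum of Csf2rb and Csf2rb2 depends less on how reads were split between the pair, provided that each shared read was counted at 1 gene only. Whether that holds is not given in the sources used here. The sum was 202.8, 188.7 and 197.4 FPKM in the control libraries and 223.8, 220.1 and 228.0 FPKM in the stimulated libraries. All 3 stimulated libraries were above all 3 controls. For the sum the log2 fold change was 0.19 (95% interval 0.03 to 0.35), with an adjusted p of 0.443 in limma. On scaled fragments in place of FPKM, the sum came to 646.8, 606.7 and 647.7 scaled fragments in control and to 741.8, 739.6 and 694.1 in stimulated libraries. On that scale the log2 fold change was again 0.19 (95% interval 0.08 to 0.31) and the adjusted p was 0.0447 in limma. The summed pair on scaled fragments was tried after the values were seen. Its call was lost without control replicate 1 (adjusted p 0.097), without control replicate 2 (0.266), without stimulated replicate 1 (0.226) and without stimulated replicate 2 (0.234), and held without control replicate 3 (0.0476) or stimulated replicate 3 (0.0321).

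Csf2ra, the ligand-binding chain of the GM-CSF receptor, had group means that differed little in FPKM. It was at 127.3, 146.0 and 137.4 FPKM in the control libraries, and at 144.8, 107.4 and 164.1 FPKM in the stimulated libraries. Stimulated replicate 2 was the lowest and stimulated replicate 3 the highest of the 6. The log2 fold change of FPKM was 0.00 (95% interval -0.36 to 0.35). In scaled fragments the control libraries lay between 148 and 154 and the stimulated libraries between 129.3 and 148.5, so that the wide spread of the stimulated libraries in FPKM was not seen there. On that scale the log2 fold change was -0.13 (95% interval -0.34 to 0.08), and the adjusted p was 0.699 in limma. The files place it at chr19:61224402-61228418 on the minus strand.

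Csf3r, the G-CSF receptor, was expressed in every library, at 57.5, 68.4 and 69.7 FPKM in control and at 75.6, 66.6 and 86.5 FPKM in stimulated macrophages. Stimulated replicate 2 lay within the range of the controls, and the other stimulated libraries lay above it. In FPKM the log2 fold change was 0.22 (95% interval -0.10 to 0.54), with an adjusted p of 0.676 in limma, and on scaled fragments 0.23 (95% interval 0.02 to 0.43) with an adjusted p of 0.352. Csf3r is itself on the list of neutrophil markers, and the other markers of that list summed to 979 to 1085 FPKM in control and 874.9 to 1231 FPKM in stimulated libraries. Their part in the Csf3r values was not tested, and in bulk RNA more transcript per cell and more cells that carry it cannot be told apart. Its locus is chr4:126024659-126044975 on the plus strand.

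In locus FPKM Spi1 varied least of the 9 genes. Its locus FPKM was 325.4, 296.5 and 303.0 in the control libraries and 314.0, 305.3 and 298.8 in the stimulated libraries, a coefficient of variation of 3.51% over all 6. The stimulated libraries lay within the range of the controls. By counting error alone its estimated fragments give a coefficient of variation of 6.26% in control and 6.35% in stimulated macrophages. Those measured on scaled fragments were 2.92% and 5.24%, so the small spread is no measure of steadiness. On named transcripts Spi1 varied by 14.5% over the 6 libraries, more than Csf1r at 6.65%. The log2 fold change was -0.01 (95% interval -0.16 to 0.14), and 0.02 (95% interval -0.15 to 0.19) on scaled fragments. On the FPKM scale the interval for the PU.1 transcript corresponds to 0.892 to 1.11 times the control level, for the spread between these cultures only. The reference transcript in the files runs over chr2:91096797-91115756 on the plus strand. Assembled transcripts of this locus began up to 14484 bases before it, and GENCODE M21 starts the gene at base 91082390.

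Cebpa was lower in every stimulated library than in any control library, again by less than the test required. The control libraries held 196.8, 198.6 and 216.9 FPKM, and the stimulated libraries 178.9, 157.8 and 184.4 FPKM. The means were 204.1 ± 11.1 FPKM in control and 173.7 ± 14.03 FPKM in stimulated macrophages (SD, n = 3 each). The log2 fold change was -0.23 (95% interval -0.44 to -0.03), which is 0.850 times the control level, with an unadjusted p of 0.0311 and an adjusted p of 0.477 in limma. On scaled fragments it was -0.24 (95% interval -0.39 to -0.08) with an adjusted p of 0.108. The summed fibroblast and osteoblast markers given above were lower in the same libraries, and their part in the Cebpa values was not tested. Every fragment of the locus, chr7:35119293-35121931 on the plus strand, was on 1 named transcript. That transcript carried a status other than OK (LOWDATA) in every library except control replicate 1, whose file marked every transcript as OK.

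Cebpb and Cebpd, the C/EBP genes known for inflammatory induction, did not pass in either direction. Cebpb was at 91.1, 89.7 and 82.8 FPKM in the control libraries and at 70.7, 92.9 and 84.9 FPKM in the stimulated libraries. The lowest and the highest value of Cebpb were both in stimulated macrophages. Its log2 fold change was -0.09 (95% interval -0.38 to 0.20), with an adjusted p of 0.850 in limma. Cebpd was at 13.9, 15.6 and 13.9 FPKM in control and at 10.5, 13.0 and 16.2 FPKM in stimulated libraries, and here too both extremes were stimulated libraries. The log2 fold change of Cebpd was -0.15 (95% interval -0.64 to 0.33), with an adjusted p of 0.854 in limma. Cebpd rested on 67 fragments in the 3 control libraries and 58 in the 3 stimulated libraries, which by counting error alone gives a coefficient of variation of 21.1% and 22.7% between libraries. These numbers rest on the estimate from coverage, whose scale is not documented in the files. The coefficients of variation measured between the libraries were 6.60% in control and 21.8% in stimulated macrophages on scaled fragments. The files place Cebpb at chr2:167688915-167690432 and Cebpd at chr16:15887286-15889545, both on the plus strand. Cebpd shares 321 bases with Spidr on the other strand, which was at 3.18 to 6.54 FPKM, and whether the counting used strand is not given in the sources used here.

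**Figure D2:**
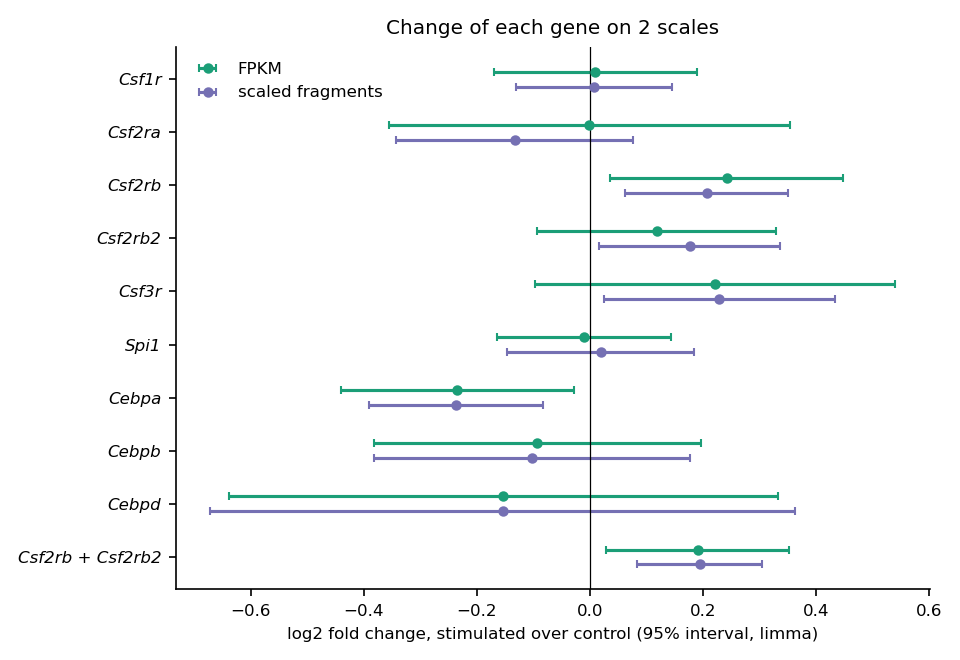
Log2 fold change, stimulated over control (x axis), with its 95% interval from limma, for the 9 genes and for Csf2rb and Csf2rb2 added together, on locus FPKM (green) and on scaled fragments (violet). Csf2rb, the pair together and Cebpa have intervals that leave out 0 on both scales, before adjustment for the number of genes.

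The order of the levels put the receptor for the growth factor of the culture first. Mean locus FPKM over the 6 libraries was 615.1 ± 40.9 (SD, n = 6) for Csf1r and 307.2 ± 10.8 for Spi1, and no library of the first overlapped with the second. Csf1r ranked 127th and Spi1 240th among the 24394 symbols. Cebpa followed at 188.9 ± 20.1 FPKM, above Csf2ra in all 6 libraries although the ranges overlapped across libraries. Csf2ra at 137.8 ± 19.2 and Csf2rb at 122.5 ± 12.4 FPKM had ranges that overlapped, and Csf2ra was the higher in 5 of 6 libraries. Csf2rb2 at 87.6 ± 4.46 and Cebpb at 85.3 ± 8.14 FPKM could not be ordered, each being the higher in 3 of 6 libraries. Csf3r at 70.7 ± 9.69 FPKM overlapped with Cebpb. Cebpd was the lowest at 13.8 ± 2.05 FPKM, below every value of Csf3r, and ranked 4497th. FPKM are scaled to transcript length, but a locus value also adds assembled transcripts, and the order of genes with close levels can depend on them. On named transcripts alone the mean over the 6 libraries was 96.05 FPKM for Csf2ra and 110 FPKM for Csf2rb, the reverse of their order above.

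Ratios within a library were compared to see whether subunits and factors shifted against each other. None of the 6 ratios passed, and with 3 libraries against 3 the smallest p that the exact permutation test (two-sided) can give is 0.1. The ratio of Csf2rb to Csf1r in FPKM was 0.183, 0.167 and 0.202 in the control libraries and 0.203, 0.205 and 0.241 in the stimulated libraries. The stimulated ratios were all higher, the lowest of them by a small margin (exact permutation p 0.1, adjusted over the 6 ratios 0.45). The ratio of the beta chain Csf2rb to the alpha chain Csf2ra was 0.825 ± 0.1003 in control and 0.981 ± 0.179 in stimulated macrophages (SD, n = 3 each, exact permutation p 0.3, adjusted 0.45) in FPKM. In fragments it was 2.47 ± 0.208 and 3.12 ± 0.152, and there the groups did not overlap (exact permutation p 0.1, adjusted 0.2). Cebpa to Spi1 was 0.663 ± 0.0557 in control and 0.568 ± 0.0501 in stimulated macrophages in FPKM (exact permutation p 0.2, adjusted 0.45). In fragments it was 1.47 ± 0.126 and 1.23 ± 0.120, and the groups did not overlap (exact permutation p 0.1, adjusted 0.2). Csf2rb to Csf2rb2 was 1.34 ± 0.0724 and 1.46 ± 0.0962 in FPKM (exact permutation p 0.3, adjusted 0.45). Cebpb to Cebpa and Cebpd to Cebpb had log2 differences of 0.14 and -0.06, stimulated minus control, with overlapping groups.

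How Cufflinks divided each locus between named and assembled transcripts differed between libraries of the same group. Assembled transcripts were present at 7 of the 9 loci, in 26 of the 54 combinations of gene and library. They were absent from Csf1r and Cebpa. At Csf3r they held 30.9%, 54.9% and 100% of the locus FPKM in the control libraries and 100%, 53.8% and 45.7% in the stimulated libraries. The named Csf3r transcripts were listed at 0 in control replicate 3 and in stimulated replicate 1, libraries whose loci held 69.7 and 75.6 FPKM. Read by its symbol alone, Csf3r was thus 39.7, 30.8 and 0 FPKM in control and 0, 30.7 and 46.9 FPKM in stimulated macrophages.

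The same division ran through the GM-CSF and IL-3 receptor chains and Spi1. The named Csf2rb2 transcripts held 44.9, 56.7 and 42.2 FPKM in control and 74.8, 93.6 and 63.1 FPKM in stimulated libraries, while the locus values lay between 82.5 and 93.6 FPKM in all 6. On named transcripts the log2 fold change of Csf2rb2 was 0.68 (95% interval 0.20 to 1.16) with an adjusted p of 0.536 in limma, against 0.12 over the locus. At Csf2ra assembled transcripts held 64.6% of stimulated replicate 3, so that its named transcript was the lowest of the 6 libraries at 58.1 FPKM while its locus was the highest at 164.1 FPKM. Spi1 carried assembled transcripts in every library, with 12.8 to 43.6% of its FPKM. Over the 7 loci with an assembled transcript the coefficient of variation over the 6 libraries was smaller for the locus than for the named transcripts in 7 of 7, for example 5.09% against 31.0% for Csf2rb2 and 3.51% against 14.5% for Spi1.

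Cebpb was divided in another way. In control replicate 1 its 91.1 FPKM were on the transcript NM_009883, and in the other 5 libraries the named FPKM were on NM_001287738, with NM_009883 at 0. In control replicate 2 an assembled transcript held 62.3% of the locus, so the named value there was 33.8 FPKM against 89.7 FPKM for the locus. At Cebpd an assembled transcript held 50% of the locus in control replicate 2. On named transcripts alone the log2 fold changes of Cebpb and Cebpd were 0.38 and 0.18, against -0.09 and -0.15 over the loci, and neither passed on either scale. Control replicate 1 was also the only library whose file marked every transcript as OK, while 770 to 795 transcripts carried another status in the others.

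**Figure D3:**
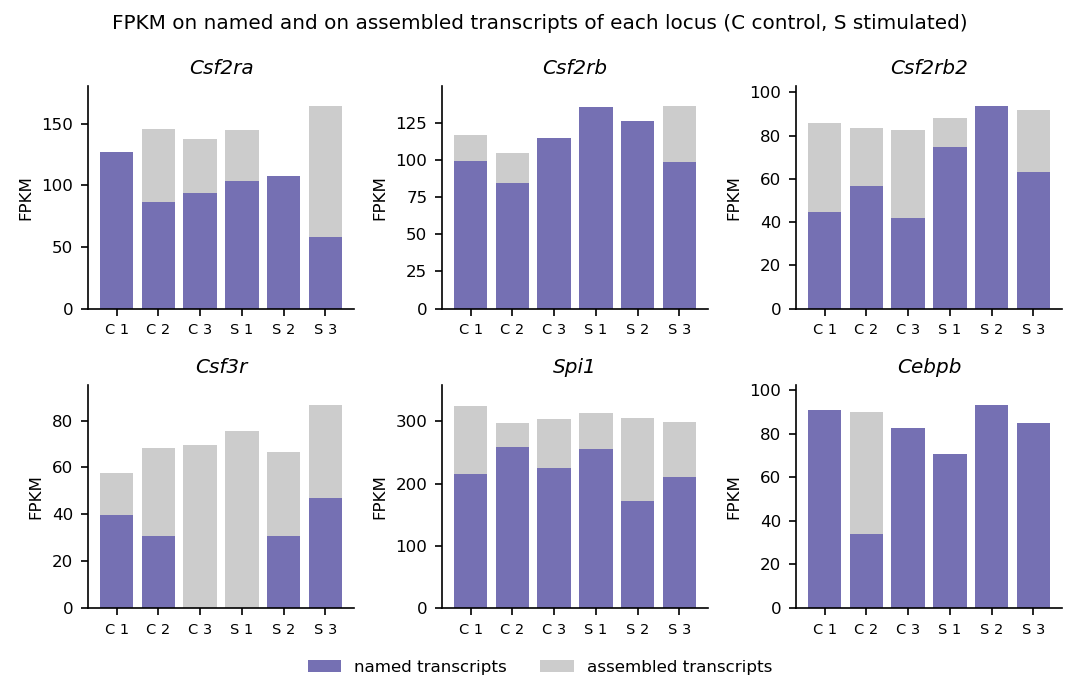
FPKM (y axis, from 0) on named transcripts (violet) and on transcripts assembled without a symbol (grey), stacked, for 6 loci in control (C) and stimulated (S) libraries 1 to 3. At Csf3r the named part is 0 in C 3 and S 1, and at Csf2rb2 the whole bars are of nearly equal height while the violet parts differ.

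Of the ligands of these receptors, Csf1 was expressed in the cultures themselves, and the other ligands listed were at or near 0. Csf2, Il3 and Il5, which encode GM-CSF, IL-3 and IL-5, were at 0 in every library, as was the IL-5 receptor chain Il5ra. Csf3, which encodes G-CSF, was at 0 in all control libraries and reached at most 1.16 FPKM in a stimulated one. Of the 8 genes of ligands and partner subunits 2 could be tested and 0 passed with limma, on FPKM or on scaled fragments. Among all tested genes 0.375% passed on FPKM and 2.65% on scaled fragments. Csf1, which encodes M-CSF, was at 12.8 ± 1.79 FPKM in control and 10.3 ± 2.51 FPKM in stimulated macrophages (SD, n = 3 each, adjusted p 0.718 in limma). Il3ra, the ligand-binding chain for IL-3, was at 18.9 ± 3.36 and 20.4 ± 2.86 FPKM (adjusted p 0.887 in limma).

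Downstream of the receptors, 1 of 23 tested genes of receptor signalling passed, against 0.375% of all tested genes. The median change was 0.09 on the log2 scale against 0.00 over all tested genes. Socs3, an inhibitor of cytokine receptor signalling that JAK and STAT activity induces, rose from 4.24 ± 1.48 to 16.6 ± 1.97 FPKM (SD, n = 3 each), a log2 fold change of 1.98 (SE 0.278) with an adjusted p of 0.0302 in limma. In 7 of the 23 genes all stimulated libraries were above all control libraries, against 9.06% of all tested genes, and in 0 below, against 6.89% of all. The adaptor Tyrobp at 3881 and 3987 FPKM, the adaptor Grb2 at 106.1 and 113.2 FPKM and the phosphatase Ptpn6 at 118.5 and 153.0 FPKM, control and stimulated means, were the most abundant, and their adjusted p in limma were 0.854, 0.831 and 0.180. On scaled fragments, where 2.65% of all tested genes passed in either direction, 5 of the 23 passed, all higher. Among them were Socs3, the Src family kinase Fgr, the ubiquitin ligase Cbl, and Adam17, a protease that sheds cell surface proteins including Csf1r. Fgr, Ptpn6, Socs3 and Adam17 are among the genes that the study itself lists as changed in these libraries, so their direction is not independent evidence. Cish, which STAT5 is known to induce, was at 0.665 to 1.37 FPKM in control and at most 0.687 FPKM in stimulated libraries, below the filter.

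None of the other tested transcription factors of the lineage passed on FPKM, where 0.375% of all tested genes did. Of 5 tested C/EBP relatives and partners 0 passed with limma there or on scaled fragments, where 2.65% of all tested genes did. Their median change was -0.01, and lists this short cannot show an absence of change. Ddit3, a C/EBP protein of the stress response, was at 46.3 ± 3.06 FPKM in control and 34.3 ± 2.51 FPKM in stimulated macrophages (SD, n = 3 each, adjusted p 0.331 in limma). Its groups did not overlap, as was the case for 16% of all tested genes. Cebpg, which the study lists as lower, was at 34.1 and 25.7 FPKM and Atf4 at 67.0 and 71.9 FPKM, with adjusted p of 0.564 and 0.828. Of 18 tested ETS and other lineage factors 0 passed on FPKM, with a median of -0.03. Among the most abundant were Id2 at 158.5 and 145.2 FPKM and Zeb2 at 58.5 and 70.1 FPKM, control and stimulated means, with adjusted p of 0.866 and 0.776. On scaled fragments Id2, an inhibitor of helix-loop-helix factors, passed with a log2 fold change of -0.47 and an adjusted p of 0.0494 in limma, and the study lists it as lower in the same libraries. Gata1, Gata2 and Gfi1b, factors of other marrow lineages, were at 0 in every library.

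Genes whose promoters or enhancers are textbook sites of PU.1 or C/EBP were read beside Spi1 and the Cebp genes. Of 16 tested macrophage genes with PU.1 sites 3 passed, all higher, against 0.308% of all tested genes, and the median change was 0.17. Adgre1, which encodes F4/80, rose from 365.3 ± 13.4 to 549.1 ± 22.04 FPKM (adjusted p 0.00922 in limma), and Cd14, the LPS coreceptor, from 118.0 ± 5.28 to 183.3 ± 14.8 FPKM (adjusted p 0.0366 in limma, SD, n = 3 each). Il1b, the cytokine IL-1 beta, rose from 2.38 ± 0.0534 to 14.96 ± 0.544 FPKM (adjusted p 0.00274 in limma). Lyz2, Ctss and Cd68 were the most abundant, and of these the protease Ctss was at 4090 ± 64.0 FPKM in control and 3682 ± 90.6 FPKM in stimulated macrophages with groups that did not overlap (adjusted p 0.129 in limma). Lyz2 and Cd68 had log2 fold changes of -0.01 and 0.11, with adjusted p of 0.997 and 0.595. On scaled fragments, where 2.65% of all tested genes passed, 6 of the 16 passed higher and 1, Ctss, passed lower (log2 fold change -0.16, adjusted p 0.000677 in limma).

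The inflammatory genes with C/EBP sites, a list chosen with earlier results of these data known, had the largest count of the 7 lists read here. Of 12 tested genes 6 passed the threshold, all higher, against 0.308% of all tested genes. Their median change was 1.55 on the log2 scale. Ptges, the inducible prostaglandin E synthase, rose from 1.68 ± 0.256 to 16.8 ± 2.21 FPKM (adjusted p 0.00181 in limma), and the acute phase gene Saa3 from 412.0 ± 55.7 to 3462 ± 461.5 FPKM (adjusted p 0.000114 in limma). Haptoglobin (Hp) rose from 23.7 ± 7.12 to 152.0 ± 26.6 FPKM (adjusted p 0.00389 in limma), and complement C3 from 37.8 ± 5.84 to 95.7 ± 13.4 FPKM (adjusted p 0.0185 in limma, SD, n = 3 each). Il1b and Cd14 are on both lists. On scaled fragments 9 of the 12 passed with limma, all higher, where 2.65% of all tested genes passed in either direction. Il6 and Nos2 of the same list were at 0 in all 6 libraries, and Ptgs2 was at 4.84 and 3.65 FPKM (adjusted p 0.703 in limma). Saa3, Hp, C3, Ptges, Tnf and Cd14 of this list, and Adgre1 and Cybb of the list before it, are named by the study as upregulated. Those calls came from the same libraries, so neither count is independent evidence of a direction. Tlr4 of the list before is named by the study as lower. For Il1b, which passed here and is on both lists, the study states the opposite, that it was not upregulated. Cebpb and Cebpd, set beside them, did not pass, with locus values that overlapped between the groups.

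Of 12 genes listed as rising with GM-CSF 5 could be tested and 0 passed, on FPKM or on scaled fragments with limma. Among all tested genes 0.375% passed on FPKM and 2.65% on scaled fragments, so 0 of 5 cannot show that such genes did not respond. The median change of the 5 was -0.30 on the log2 scale. The most abundant were Fabp4 at 159.6 and 128.1 FPKM, the integrin Itgax at 79.1 and 71.7 FPKM and the regulator Bhlhe40 at 24.3 and 24.3 FPKM, control and stimulated means, with adjusted p of 0.569, 0.776 and 0.976 in limma. Ccl17 and Cd209a of this list were at 0 in every library.

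**Figure D4:**
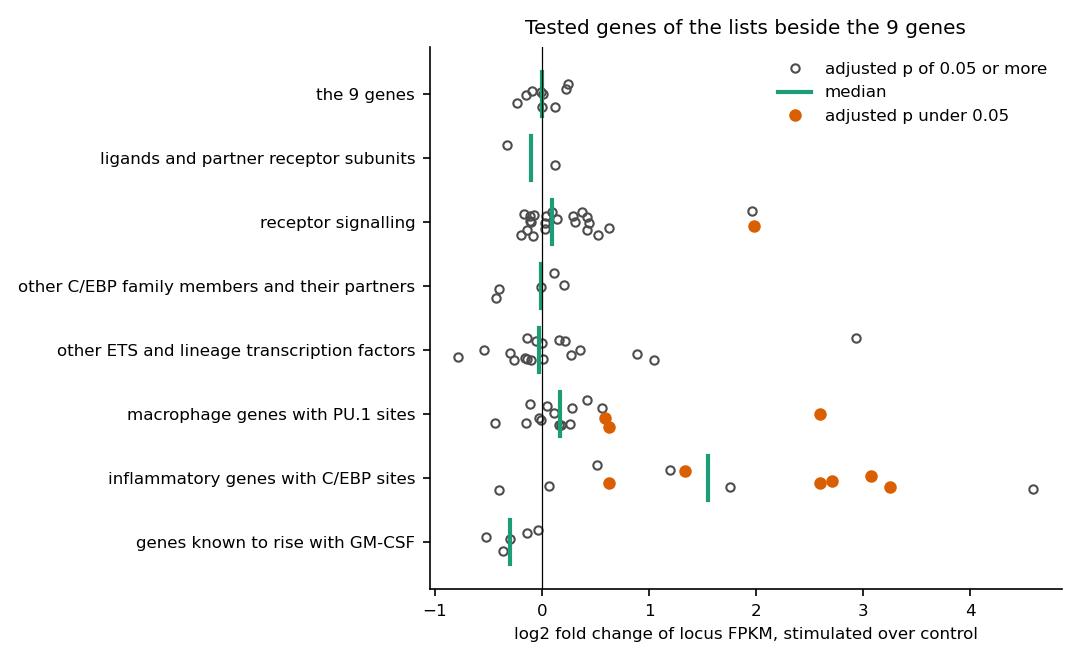
Log2 fold change of locus FPKM, stimulated over control (x axis), for the 9 genes and the tested genes of 7 lists (rows), with genes at an adjusted p under 0.05 in limma filled and the median of each row as a green line. The filled points lie in 3 of the lists and none among the 9 genes, whose points sit between -0.23 and 0.24.

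Over the 6 libraries, the genes whose log2 FPKM ran most like 4 of the members were listed among 5525 other genes whose mean reached 10 FPKM, as a description. Csf1r ran most like Jun (Pearson r 0.984), Tmem164 (0.974) and Abhd14b (0.967). Csf2rb ran most like Hist3h2a (0.986), Psmb5 (0.986) and Tspo (0.979). Spi1 ran most like Mavs, Plcb2 and Ankrd11 (0.989 to 0.983), and Cebpb most like Sash3, Ttc7 and Pdxdc1 (0.999 to 0.987). With 6 libraries that share depth and preparation, 32 to 99 genes exceeded a correlation of 0.9 with a given member. On scaled fragments Jun again led for Csf1r and Sash3 for Cebpb, while the leading gene for Csf2rb was F10 and for Spi1 Atf6b.

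The sequence before the start of the receptor genes was read for the core that PU.1 is known to bind. The table of RefSeq promoters on GRCm38.p6 used here held 5 of the 9 genes, Csf2ra, Csf2rb2, Csf3r, Cebpa and Cebpb. In the 300 bases around these starts GAGGAA, read on both strands, was found in Csf2ra (2 times), Csf2rb2 (2 times) and Csf3r (1 time), and not in Cebpa or Cebpb. Of all 32851 listed windows of that length 28.3% hold it. TTGCNNAA, a C/EBP core read on both strands, was in none of the 5 windows and in 10.8% of all, and no match of the motifs overlapped another. The 250 bases before the start are shown for Csf2ra (chr19:61228419-61228668, minus strand) and Csf3r (chr4:126024409-126024658, plus strand), as receptor genes with a match close to the start, with GAGGAA in capitals:
Csf2ra: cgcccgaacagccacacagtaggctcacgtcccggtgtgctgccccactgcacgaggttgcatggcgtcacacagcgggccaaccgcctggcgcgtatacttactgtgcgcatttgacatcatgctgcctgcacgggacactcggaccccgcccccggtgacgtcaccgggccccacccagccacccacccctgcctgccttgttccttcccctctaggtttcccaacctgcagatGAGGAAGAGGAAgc
Csf3r: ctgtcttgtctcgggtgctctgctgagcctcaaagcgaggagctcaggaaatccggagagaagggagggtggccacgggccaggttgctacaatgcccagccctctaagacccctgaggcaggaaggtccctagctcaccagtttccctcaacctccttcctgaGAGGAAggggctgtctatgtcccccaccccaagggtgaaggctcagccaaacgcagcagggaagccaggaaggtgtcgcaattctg
A match is a description of the letters and no measured site, since these libraries hold RNA only.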

How the data were processed

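RNA-seq libraries of 3 control and 3 stimulated cultures were used, all 6 of the series, grouped by their labels. Per the labels and the study's methods, the authors prepared stranded mRNA libraries, used TopHat with Bowtie to align paired-end 100 bp reads to mm10, and ran Cufflinks. TMM and Cuffdiff are named too, and versions are not given in the sources used here. The deposited FPKM are per transcript, and the deposited coverage (a signal of mean read depth) and length stand beside them. FPKM were summed per locus, adding assembled transcripts that shared the locus of 1 symbol. Transcripts with the symbol alone were the alternative. Fragments were estimated as coverage times the length, less 216 to 225 bases, over the read length, and 93.7 to 94.9% of values up to 8 came within 0.1 of a whole number. They were scaled to the mean library, and 0.5 was added before log2.

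Genes whose mean reached 1 FPKM entered the comparison with limma 3.58.1 in R 4.3.3 (trend, robust, two-sided, Benjamini-Hochberg, 0.05) on log2(FPKM + 0.1). The added 0.1 understates changes of low genes with values above 0 and can overstate them where a library is at 0. The procedure was tested on simulated data. Intervals are 95%. Ratios were tested with exact permutation tests in scipy 1.17.1 (Python 3.11.15), and sequences were aligned with Biopython 1.88. The members and lists were chosen with earlier results of these data known. Of each list the genes past the threshold and the 3 with the highest mean were named, and any other gene was named with its values known. Some genes of the lists are not reported here by name. The alternatives varied pseudocount, filter, scaling, moderation, weights, block, transcripts used, unit and libraries. Counting error only is covered by the fragment numbers.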

Additional observations from a re-analysis of the deposited data

How the results depend on the processing

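Of the 9 genes, 0 passed the threshold under any alternative that read them as single genes. The count of 39 genes past the threshold became 275 on scaled fragments, 18 without the trend and robust options of limma, 19 on reference transcripts only and 9 to 30 with 1 library left out, lowest without stimulated replicate 1 (25 without control replicate 1, 19 without stimulated replicate 2). Of the lists, 8 genes passed, 20 on scaled fragments, 3 without trend and robust options, 4 on reference transcripts only and 3 to 7 with 1 library left out. With the replicate number as a block 18 genes passed, 5 of the lists and 0 of the 9 genes. No pairing by replicate number was seen. Deviations of same-numbered libraries correlated at -0.01, -0.007 and 0.01, and no library correlated best with its own number. Correlations this close to 0 cannot show whether the cultures were paired by design.

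Csf2rb, Csf2rb2, Csf3r and Cebpa kept their direction under every alternative that gave them a value. The other 5 genes, all with an adjusted p above 0.7 there, changed sign in places. Csf1r had log2 fold changes of -0.03 with equal totals, -0.00 with size factors and -0.05 with quantiles, and between -0.05 and 0.07 with 1 library left out, on either scale. Csf2ra lay between -0.13 and 0.17 with 1 library left out. Spi1 came to 0.02 on scaled fragments, 0.02 there with the replicate block, and between -0.04 and 0.03 with 1 library left out (-0.02 to 0.05 on scaled fragments). Cebpb and Cebpd came to 0.38 and 0.18 on reference transcripts only, and to between -0.18 and 0.02 and between -0.31 and 0.00 with 1 library left out (Cebpb -0.19 to 0.01 on scaled fragments). The cause of these changes was not tested. The log2 ratio of Csf2rb to Csf2rb2 differed by -0.41 on reference transcripts only. With 1 library left out, the difference for Csf2rb to Csf2rb2 lay between 0.08 and 0.18, for Cebpb to Cebpa between -0.01 and 0.27 and for Cebpd to Cebpb between -0.20 and 0.03. On scaled fragments with Csf2rb and Csf2rb2 summed, added after the values were seen, 1 call was gained.

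With status OK only, Cebpa, Cebpb and Cebpd gave no value. Cebpd had the fewest estimated fragments of the 9 genes.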
